A study of Mus musculus with 6 samples.

Results

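The subunits, activators and assembly factors of the proteasome were examined in bulk RNA-Seq of mouse livers. Members were the genes of the count table whose symbol is Psma, Psmb, Psmc, Psmd, Psme, Psmf or Psmg followed by a number. The rule found 48 of 52459 genes and used no measured value. Of the 48 members, 5 are immunoproteasome genes (Psmb8, Psmb9, Psmb10, Psme1 and Psme2) and 43 are constitutive or regulatory.

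The study asked what loss of peroxiredoxin 2, an enzyme that removes hydrogen peroxide, does in a mouse liver that develops cancer. All mice were Alb-Cre/Cas9 F1 animals on the C57BL6J strain, male according to the study's methods, in which the albumin promoter drives Cre and so turns on Cas9 in hepatocytes. At 4 to 5 weeks of age they received an AAV8 vector with a guide RNA, either a control guide (sgCtrl, mice 5.1, 7.1 and 7.2) or a guide against Prdx2 (sgPrdx2, mice 1.1, 1.3 and 3.2). Both groups were given 100 mg/kg diethylnitrosamine (DEN), a liver carcinogen, 3 weeks after the vector. Both were then fed a choline-deficient high-fat diet (CDAHFD) for 6 months, starting 1 week after DEN, and the livers were taken at 8 months. No untreated liver was compared here, so each difference is between the guides in diseased tissue. The edit is a mosaic, since the study saw islands of hepatocytes that kept the protein, and cells other than hepatocytes were not targeted.

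The proteasome is the protease that degrades proteins tagged with ubiquitin. Its 20S core is a barrel of alpha rings and beta rings, of which the beta1, beta2 and beta5 subunits (Psmb6, Psmb7 and Psmb5) cut peptide bonds, and the 19S particle on its ends binds, unfolds and feeds in the substrate. In immune cells, and in other cells under interferon, these catalytic subunits are replaced in newly made cores by Psmb9, Psmb10 and Psmb8, and the PA28 ring of Psme1 and Psme2 can take the place of the 19S particle; the peptides made this way are loaded on MHC class I. When proteasome activity falls short, the factor Nfe2l1 raises transcription of the whole set of subunits through antioxidant response elements (ARE).

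Promoter sequences are shown for Psmb5, Psmb6 and Psmd9, which carry this element close to the start, since it is the known route of shared control. RefSeq promoter windows (GRCm38.p6, 250 bases before to 50 bases after the start) were found for 40 of the 48 members in 43 windows. The ARE core TGACNNNGC, read on both strands, was present in 6 of the 43 windows (14.0%) and in 12.4% of all 32851 windows. It lay 47 bases before the start of Psmb5, 9 bases before that of Psmb6 and 31 bases before that of Psmd9. In Psme4, which is not shown, it began 7 bases before the start and ran past it. In Psmc6 and Psmd12, also not shown, it lay 227 and 247 bases before the start. The stretches below run 5′ to 3′ along the gene's strand. Those of Psmb6 and Psmd9 end at the base before the RefSeq start, and that of Psmb5 ends at the base before the first exon of GENCODE, which begins further upstream. They are chr14:54618023-54618142 (minus strand) for Psmb5, chr11:70525237-70525356 (plus strand) for Psmb6 and chr5:123228070-123228189 (plus strand) for Psmd9, and capitals mark the ARE core.
Psmb5: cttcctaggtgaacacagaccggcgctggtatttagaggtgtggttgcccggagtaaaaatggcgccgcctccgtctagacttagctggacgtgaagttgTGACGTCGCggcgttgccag
Psmb6: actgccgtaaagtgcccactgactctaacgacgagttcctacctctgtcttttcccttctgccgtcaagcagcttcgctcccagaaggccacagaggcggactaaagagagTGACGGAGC
Psmd9: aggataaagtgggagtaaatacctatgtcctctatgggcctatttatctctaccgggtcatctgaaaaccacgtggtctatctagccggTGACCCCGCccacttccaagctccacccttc

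Of the elements known from interferon-responsive genes, the gamma-activated site (GAS) core TTCNNNGAA, which reads the same on both strands, was in 3 of the 43 member windows (6.98%) and in 8.30% of all windows. Among the immunoproteasome genes it was in the window of Psmb8, 97 bases before the RefSeq start. The site at chr17:34198088-34198116 (plus strand, GRCm38.p6) is shown with the core in capitals, and it lies inside the longer first exon that GENCODE annotates for this gene.
Psmb8: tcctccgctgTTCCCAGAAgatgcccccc

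The core of the interferon-stimulated response element (ISRE), GAAANNGAA, was in 7 of the 43 member windows (16.3%) and in 8.56% of all windows, and of the immunoproteasome genes Psme1 held it. The CCAAT box was in 14 of the 43 (32.6%) and in 37.4% of all windows. Psmb9 lies head to head with Tap1, which encodes a subunit of the MHC class I peptide transporter, with 225 bases between their RefSeq starts. A match of these letters is a description of the window and not a bound site.

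Total counts per liver ranged from 37462102 to 56865293, and 17032 genes passed the filter on low counts. Prdx2 itself gave 109, 117 and 132 CPM (counts scaled to a common library size) in the sgCtrl livers and 99.0, 112 and 149 in the sgPrdx2 livers. Its groups overlapped, and since small insertions and deletions need not lower an RNA, the labels could not be checked from it. Liver sgPrdx2 3.2 stood apart on the first principal component (61.0, against 10.9 and 19.7 for the other sgPrdx2 livers), which held 44.9% of the variance. That component also separated the groups, with the sgCtrl livers at -39.4, -26.0 and -26.2. Results are also given without liver 3.2, which takes out the sgPrdx2 liver furthest from the sgCtrl livers. Of 12 hepatocyte markers 12 were measured, and their sum was 81929 to 88720 CPM in the control group and 139969 to 186498 CPM in the sgPrdx2 group.

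No proteasome gene passed the test. Of the 48 members 47 were tested, and 0 had an edgeR adjusted p under 0.05, where 3.33% of all genes tested did. Most members were a little higher in sgPrdx2 livers: 41 of 47 had a positive log2 fold change (87.2%, against 48.3% of all genes). Their median was 0.24, beside -0.02 over all genes. When libraries were scaled to housekeeping genes, 6 of 47 were positive (12.8%, against 18.5% of all genes). The count of members whose groups did not overlap was at the level of the rest of the genome: 8 members (17.0%) were higher in each sgPrdx2 liver than in each sgCtrl liver, as were 16.7% of all genes. In the other direction 1 member (2.13%) was lower in each sgPrdx2 liver, against 17.5% of all genes. At an unadjusted p under 0.05 in edgeR 6 members were higher (12.8%, against 13.0% of all genes) and 0 lower (against 11.9%). DESeq2 called 1 member, Psmf1, where it called 13.8% of the genes it gave an adjusted p.

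**Figure D1:**
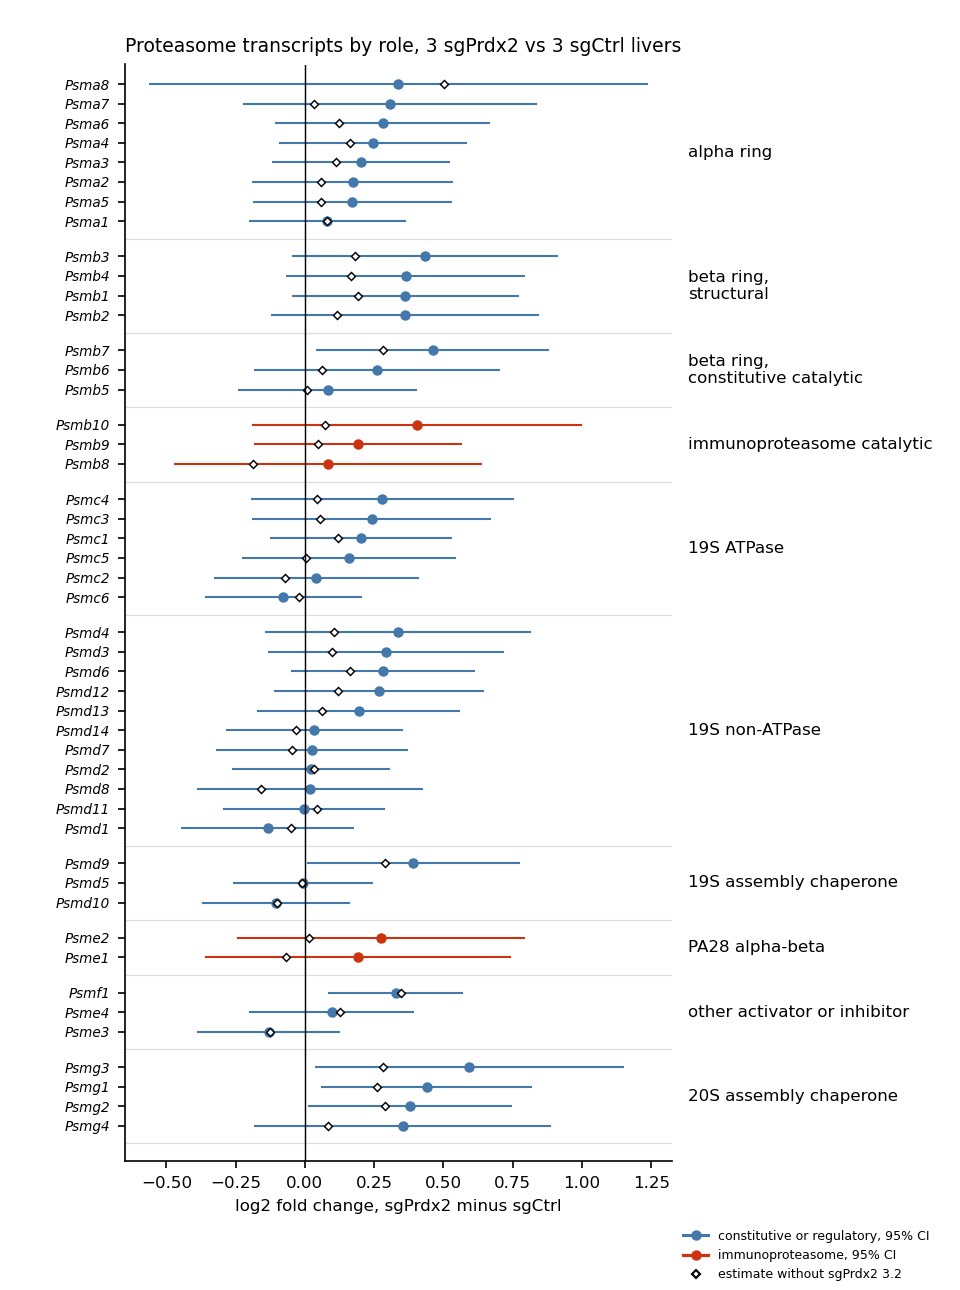
Log2 fold change of each tested member (sgPrdx2 minus sgCtrl, x axis) by role; dots are edgeR estimates with 95% confidence intervals, red for immunoproteasome genes, and open diamonds the estimates without liver sgPrdx2 3.2. On this scale 41 of the 47 dots lie above 0, and the 5 red intervals all include 0.

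The small common shift came mostly with 1 liver. Liver sgPrdx2 3.2 had the highest level of the 6 livers for 35 of the 47 members (74.5%), and for 30.0% of all genes. Without it the median of the members was 0.06, and 36 of 47 were positive (76.6%, against 48.8% of all genes). The 42 constitutive and regulatory members, taken as the median over genes of the log2 level relative to the sgCtrl mean, stood at -0.05, -0.10 and 0.12 in the sgCtrl livers and at 0.09, 0.07 and 0.44 in the sgPrdx2 livers. Livers 1.1 and 1.3 therefore lay between the sgCtrl livers, and 3.2 above all of them.

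The immunoproteasome genes were compared first with the other members, since interferon is known to raise them. Their median log2 fold change was 0.19 over 5 genes, beside 0.24 over the 42 other tested members, and 0.02 beside 0.08 without liver 3.2. None of the 5 was called, in 0 of the 5 did the groups separate, and in each of them liver 3.2 was the highest of the 6. By the same per-liver measure the 5 genes stood at 0.17, -0.28 and 0.12 in the sgCtrl livers and at 0.06, -0.03 and 0.64 in the sgPrdx2 livers. Liver sgCtrl 7.1 was thus the lowest and 3.2 the highest, and the other 4 lay close together.

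Psmb9 (chr17:34181987-34187764, minus strand, GRCm38), the beta1i subunit, gave 44.6, 35.8 and 41.3 CPM in sgCtrl and 42.8, 40.5 and 56.0 in sgPrdx2 livers. Livers 1.1 and 1.3 lay inside the sgCtrl range and 3.2 above it, and the log2 fold change was 0.19 ± 0.16 (SE; 95% interval -0.18 to 0.57; edgeR adjusted p = 0.484). Psmb10 (chr8:105935735-105938444, minus strand), the beta2i subunit, gave 82.3, 59.5 and 77.3 CPM in sgCtrl and 75.8, 76.8 and 138 in sgPrdx2 livers. Its estimate of 0.41 ± 0.26 (interval -0.19 to 0.997; edgeR adjusted p = 0.359) was the largest of the 5, and without 3.2 it was 0.07. Psmb8 (chr17:34197721-34201454, plus strand), the beta5i subunit, gave 112, 79.8 and 109.7 CPM in sgCtrl and 92.6, 82.5 and 144 in sgPrdx2 livers. Its estimate was 0.08 ± 0.24 (interval -0.47 to 0.63; edgeR adjusted p = 0.848). The sign turned when single livers were left out, to -0.19 without 3.2 and to -0.059 without sgCtrl 7.1.

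Both genes of the PA28 ring, which opens the gate of the core, lie close together on chromosome 14. Psme1 (chr14:55578123-55581529, plus strand) gave 167, 115 and 158 CPM in sgCtrl and 145, 132 and 225 in sgPrdx2 livers, with a log2 fold change of 0.19 ± 0.24 (interval -0.36 to 0.74; edgeR adjusted p = 0.645). Psme2 (chr14:55587441-55591113, minus strand) gave 75.6, 61.8 and 85.0 CPM in sgCtrl and 76.8, 72.0 and 120.3 in sgPrdx2 livers, with a log2 fold change of 0.27 ± 0.22 (interval -0.24 to 0.79; edgeR adjusted p = 0.474). In both, livers 1.1 and 1.3 lay inside the sgCtrl range and 3.2 above it, and without 3.2 the estimates were -0.07 and 0.02. Psme2 is counted with uncertainty: 59.3% of the 50-base stretches of its transcript also occur in other genes, chiefly Psme2b, which had 913 to 1348 counts per liver. The counting of such shared reads is not given in the sources used here.

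The constitutive catalytic subunits that these genes replace gave the same picture, with Psmb7 apart. Psmb6 (beta1; chr11:70525367-70527858, plus strand) gave 142, 131 and 163 CPM in sgCtrl and 155, 147 and 221 in sgPrdx2 livers, with a log2 fold change of 0.26 ± 0.19 (interval -0.18 to 0.70). Psmb5 (beta5; chr14:54614119-54618022, minus strand) gave 34.1, 32.4 and 40.6 CPM in sgCtrl and 36.6, 34.6 and 42.2 in sgPrdx2 livers, with a log2 fold change of 0.08 ± 0.14 (interval -0.24 to 0.40). The groups overlapped for both, and 57.1% of the 50-base stretches of Psmb5 also occur in other genes. Psmb7 (beta2; chr2:38588036-38644087, minus strand) gave 87.5, 85.7 and 102 CPM in sgCtrl and 116, 106 and 158 in sgPrdx2 livers. Each sgPrdx2 liver lay above each sgCtrl liver, but the estimate of 0.46 ± 0.18 (interval 0.04 to 0.88) did not pass (edgeR adjusted p = 0.166, and 0.223 without 3.2).

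**Figure D2:**
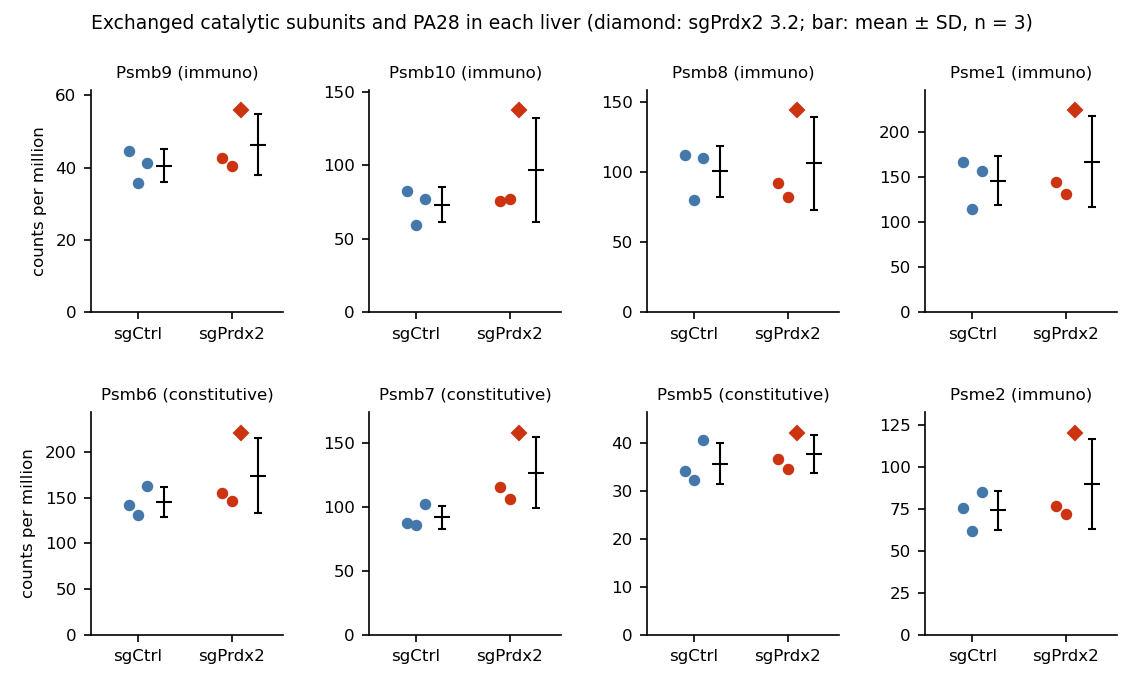
Level of the exchanged catalytic subunits (immunoproteasome above, constitutive below) and of the PA28 genes in CPM (y axis, from 0) in each liver, blue for sgCtrl and red for sgPrdx2, with mean ± SD of 3 livers. The diamond, liver sgPrdx2 3.2, is the highest point in each of the 8 panels.

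The balance between both kinds of core does not depend on how libraries are scaled against each other, so it was taken as a share within each liver. The share is not corrected for a trend with transcript length within a library, which is described below. Psmb9 (1352 bases), Psmb10 (1311) and Psmb8 (1628) have longer transcripts than Psmb6 (798), Psmb7 (1160) and Psmb5 (899), and the part of this in the share was not tested. Per kilobase of transcript, Psmb8, Psmb9 and Psmb10 together made up 36.1%, 30.6% and 31.7% of the 6 catalytic genes in sgCtrl livers and 30.4%, 30.8% and 33.8% in sgPrdx2 livers. The means were 32.8% ± 2.88 and 31.7% ± 1.85 (SD, n = 3 each), a difference of -1.15 percentage points that is smaller than either SD. Without liver 3.2 it was -2.22 and without sgCtrl 5.1, the liver with the highest share, 0.48.

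The positions differed widely in how much of the immunoproteasome form they had, and little between groups. At beta1, Psmb9 made up 14.2% ± 1.33 of Psmb6 plus Psmb9 in sgCtrl and 13.7% ± 0.596 in sgPrdx2 livers. At beta2, Psmb10 made up 41.2% ± 3.80 of Psmb7 plus Psmb10 in sgCtrl and 39.8% ± 3.47 in sgPrdx2 livers. At beta5, Psmb8 made up 60.7% ± 3.46 of Psmb5 plus Psmb8 in sgCtrl and 60.2% ± 4.56 in sgPrdx2 livers. At each position the groups overlapped. These are shares of RNA per length and not of assembled particles, and the beta5 share rests on Psmb5, whose reads may be divided with near copies.

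**Figure D3:**
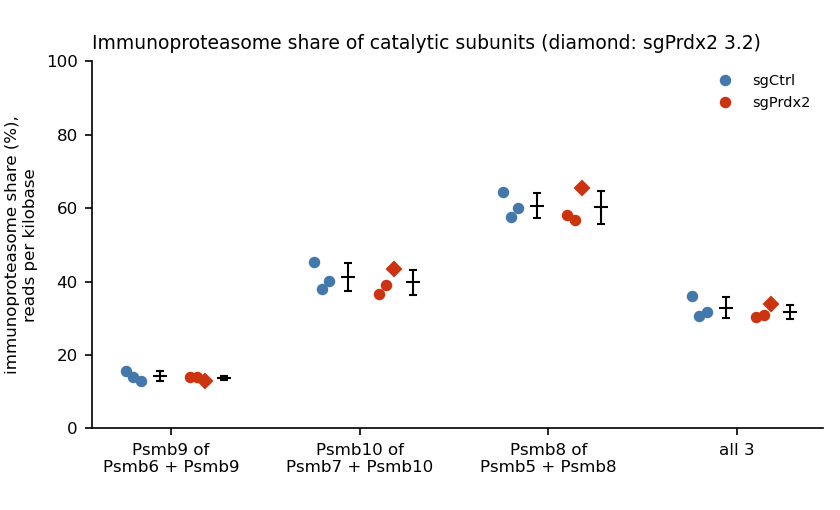
Share of the immunoproteasome subunit at each catalytic position and over all 3 (percent of reads per kilobase, y axis) in each liver, with mean ± SD of 3 livers; the diamond is sgPrdx2 3.2. The share is 13.0% to 15.6% at beta1 and 56.9% to 65.4% at beta5, with both groups interleaved.

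The rest of the 20S core was higher in sgPrdx2 livers without a call. All 8 alpha ring genes had a positive log2 fold change, from 0.08 to 0.34, with edgeR adjusted p from 0.328 to 0.703. The largest was that of Psma8, an alpha subunit of germ cells, which was the lowest of the tested members with 34 to 94 counts per liver and 1.60, 1.49 and 0.647 CPM in sgCtrl and 2.14, 1.35 and 1.20 in sgPrdx2. The smallest was Psma1, with 91.4, 91.1 and 103 CPM in sgCtrl and 99.9, 99.3 and 102 in sgPrdx2 livers. Psma6 was the alpha gene whose groups did not overlap, at 101 to 118 CPM in the control livers and 118 to 165 CPM after sgPrdx2.

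The structural beta subunits, which do not cut, had the closest estimates of any role, 0.36 to 0.43 in all 4 genes. Psmb3 had the largest, with 43.5, 40.7 and 48.7 CPM in sgCtrl and 51.1, 48.4 and 80.04 in sgPrdx2 livers (0.43 ± 0.21, interval -0.04 to 0.91). Psmb2 had the smallest, with 94.7, 87.8 and 107 CPM in sgCtrl and 103, 105 and 165 in sgPrdx2 livers (0.36 ± 0.21, interval -0.12 to 0.84). In both genes liver 3.2 lay far above the other 5, and 55.8% of the 50-base stretches of Psmb3 also occur in other genes. Without 3.2 the median of the 4 genes was 0.17. Psmb11, the catalytic subunit of the thymus, was filtered out, with 1 read in sgCtrl 7.1 and 0 in the other 5 livers, each of which allows up to 0.055 to 0.092 CPM at 3 counts.

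The 19S particle was flatter, with a median of 0.16 over 17 genes. The 14 core genes other than Psma8 and the immunoproteasome had a median of 0.27. Without 3.2 the medians were 0.04 and 0.11, and with a correction for transcript length and GC content 0.07 and 0.12. Of the 6 ATPases of the 19S particle, the ring that unfolds substrates, 5 were positive with a median of 0.18. Of its 11 other subunits, which make up the lid, the scaffold of the base and a ubiquitin receptor, 9 were positive with a median of 0.03. Psmc4 gave 113, 111 and 134 CPM in sgCtrl and 124, 119.6 and 190.1 in sgPrdx2 livers (0.28 ± 0.20), and Psmc6 gave 70.7, 66.6 and 75.9 against 69.5, 69.3 and 63.1 (-0.08 ± 0.12). Psmd4, a ubiquitin receptor, gave 117, 110.3 and 139.8 CPM in sgCtrl and 129.8, 131 and 202 in sgPrdx2 livers (0.34 ± 0.21). Psmd1, the large scaffold of the base, gave 92.7, 101 and 105 CPM in sgCtrl and 99.4, 91.5 and 81.5 in sgPrdx2 livers (-0.13 ± 0.13). These 4 genes were named because they had the largest and smallest estimates of their roles. Liver 3.2 was the highest of the 6 for Psmc4 and Psmd4 and the lowest for Psmc6 and Psmd1. Over all 17 genes of the 19S particle, liver 3.2 was the highest for 12 and the lowest for 2. Psmd6 was the 19S gene whose groups did not overlap, at 56.2 to 62.0 CPM in the control livers and 65.1 to 83.6 CPM after sgPrdx2.

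The genes that assemble the core stood highest among the roles. The 4 chaperones that build the alpha ring, Psmg1 to Psmg4, had a median log2 fold change of 0.41, and the groups did not overlap in 3 of them. These 3 are among the 8 such members counted above, whose share of all members was close to the 16.7% of all genes. Psmg3 gave 8.68, 9.30 and 10.2 CPM in sgCtrl and 12.0, 10.6 and 19.99 in sgPrdx2 livers, an estimate of 0.59 ± 0.24 (interval 0.04 to 1.15; edgeR adjusted p = 0.178). Psmg4 gave 9.98, 7.47 and 9.23 CPM in sgCtrl and 9.14, 9.58 and 15.4 in sgPrdx2 livers, and its groups overlapped. Without 3.2 the 4 estimates ran from 0.08 to 0.29, with edgeR adjusted p from 0.129 (Psmg1) to 0.769 (Psmg4). Their transcripts are short, with 555 to 1059 bases. With a correction for transcript length and GC content their median was 0.23, below the 0.35 of Psme3, Psme4 and Psmf1.

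Of the chaperones that assemble the 19S base, Psmd9 gave 32.6, 32.6 and 43.8 CPM in sgCtrl and 43.0, 45.4 and 54.9 in sgPrdx2 livers (0.39 ± 0.16, edgeR adjusted p = 0.190). Psmd10, known as gankyrin and as an oncoprotein of liver cancer, gave 15.8, 17.5 and 17.3 CPM in sgCtrl and 15.4, 15.8 and 15.8 in sgPrdx2 livers (-0.10 ± 0.11, interval -0.37 to 0.16). The groups overlapped for both, and the estimate of Psmd5 was -0.01.

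Psmf1, which encodes the inhibitor PI31, was the member nearest to a call. It gave 36.0, 35.2 and 36.5 CPM in sgCtrl and 45.9, 44.7 and 44.6 in sgPrdx2 livers (chr2:151715812-151744186, minus strand). The groups were far apart beside their spread, and liver 3.2 was here the lowest of its group. The log2 fold change was 0.33 ± 0.10 (interval 0.09 to 0.57; edgeR adjusted p = 0.112) and 0.35 without 3.2 (edgeR adjusted p = 0.067). It passed with DESeq2 (adjusted p = 0.037) and with a correction for transcript length and GC content (edgeR adjusted p = 0.039), and it did not pass in the other 11 settings, in which the sign was negative with housekeeping scaling (-0.039). Psme3, the nuclear activator PA28 gamma, was the single member lower in each sgPrdx2 liver, with 58.9, 61.2 and 57.8 CPM in sgCtrl and 55.1, 52.6 and 54.8 in sgPrdx2 livers (-0.13 ± 0.11, interval -0.39 to 0.12). Psme4, the activator PA200, had an estimate of 0.10 ± 0.13.

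Levels of different members were compared per kilobase of transcript. Psmb6 was the most abundant member at 200.2 CPM per kilobase over the 6 livers, followed by Psma7 (171), Psmd8 (165) and Psme1 (141). Of the catalytic subunits, Psmb7 stood at 94.2, Psmb10 at 64.8, Psmb8 at 63.6, Psmb5 at 40.9 and Psmb9 at 32.2. Psmb8 and Psmb10, neighbours in this order, differed by less than the SD of either over the sgCtrl livers (11.0 and 9.12). Psmf1 (10.6), Psmd5 (8.96) and Psma8 (0.830) were the lowest of the 47 tested members.

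The shift of the members went along with the length of their transcripts. Across the 47 members, the log2 fold change and the transcript length had a Spearman correlation of -0.50, and across 16542 tested genes with a known length one of -0.33; without liver 3.2 these were -0.17 and -0.14. These are correlations across genes that share their libraries, given as a description. The 24 members under 1500 bases had a median log2 fold change of 0.28, beside 0.23 over the 3728 genes of that length. The 23 longer members had a median of 0.10, beside -0.08 over 12814 longer genes. In liver 3.2 alone the deviation of the members from their mean over livers had a correlation of -0.67 with length. In the other 5 livers it was 0.60 in sgCtrl 7.1, 0.31 in sgPrdx2 1.1, 0.18 in sgCtrl 5.1 and 0.17 in sgCtrl 7.2 and sgPrdx2 1.3. The mean includes liver 3.2, so these values depend on each other. With length and GC content corrected within each library the median was 0.11 for the constitutive and regulatory members and 0.00 for the immunoproteasome genes, and 32 of the 47 were positive (68.1%, against 49.6% of all genes). The part of RNA quality in this relation was not tested.

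**Figure D4:**
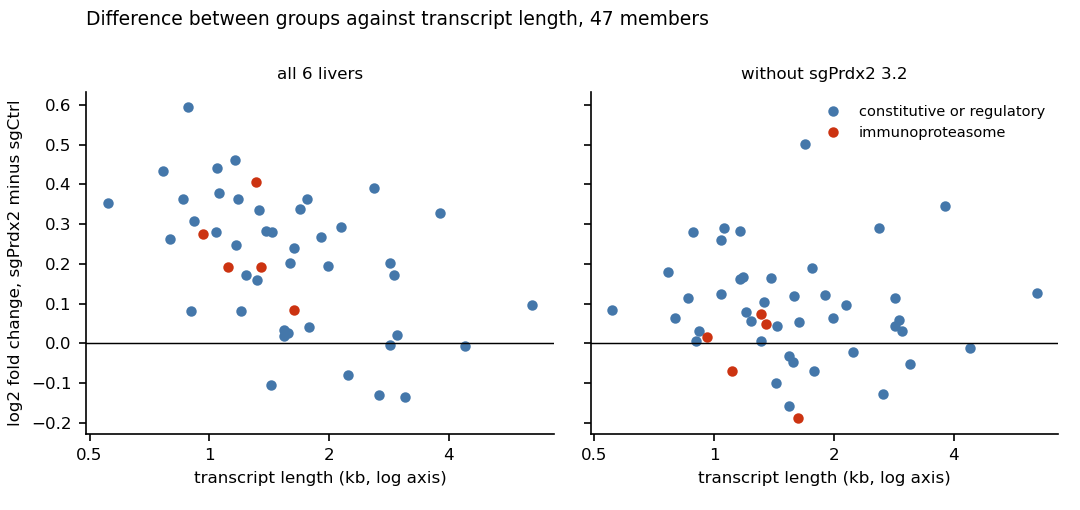
Log2 fold change (sgPrdx2 minus sgCtrl, y axis) against transcript length in kilobases (log axis) for 47 members, with all 6 livers at left and without sgPrdx2 3.2 at right; red points are immunoproteasome genes. The downward slope at left (Spearman -0.50) is shallower at right (-0.17).

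The choice of reference also set the sign. When the libraries were scaled to 6 housekeeping genes (Atp5b, Bag6, Cox8a, Hint1, Hnrnpa2b1 and Ndufa2), the median of all genes moved to -0.38. In the TMM fit those genes had a median log2 fold change of 0.43. Of the 6, Atp5b (0.45), Bag6 (0.26), Cox8a (0.65) and Ndufa2 (0.68) were higher in each sgPrdx2 liver. The groups overlapped for Hint1 (0.42) and Hnrnpa2b1 (-0.07). Atp5b, Cox8a and Ndufa2 encode subunits of the ATP synthase or the respiratory chain, which carry out oxidative phosphorylation. The study reported a rise of oxidative phosphorylation pathways after the knockout. Whether this reference was stable between the groups was not tested. On the housekeeping scale 6 of the 47 members were positive (12.8%, against 18.5% of all genes), while 43 of 47 stayed above the median of all genes. Relative to that median, the constitutive and regulatory members stood at 0.24 and the immunoproteasome genes at 0.19.

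Genes that work beside the proteasome but fall outside the name rule gave no call. Of 12 partners, among them the assembly factor Pomp, the receptor Adrm1 and the deubiquitinase Usp14, 11 were tested, 6 were higher, 5 lower and 0 called, with a median of 0.05. Without liver 3.2, 9 of the 11 were higher, with a median of 0.08. Pomp, which matures the beta ring, was higher in each sgPrdx2 liver (0.40 ± 0.18, edgeR adjusted p = 0.217, and 0.22 without 3.2), and Usp14 was lower in each (-0.20 ± 0.11, edgeR adjusted p = 0.283). Sem1, a small 19S subunit, had an estimate of 0.45 ± 0.24, and of 0.15 without 3.2, since livers 1.1 and 1.3 lay inside the sgCtrl range. Of the 5 genes that control proteasome transcription none was called and 2 were higher, with a median of -0.07 over all livers and of 0.10 without 3.2. Nfe2l1, the factor that acts through the ARE, averaged 159 CPM in sgCtrl and 121 in sgPrdx2 livers (-0.40 ± 0.15, edgeR adjusted p = 0.164). It was lower in each sgPrdx2 liver, as were 17.5% of all genes. Its estimate was -0.26 without 3.2 and -0.28 with the length and GC correction. The estimates of Nfe2l2 and Vcp were -0.17 and 0.10. The 6 members with an ARE core in their window had estimates of -0.08 (Psmc6), 0.08 (Psmb5), 0.10 (Psme4), 0.26 (Psmb6), 0.27 (Psmd12) and 0.39 (Psmd9).

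The genes of antigen presentation, whose products handle the peptides, and the interferon-responsive genes were read beside the immunoproteasome. Of 12 MHC class I presentation genes 5 were higher, 7 lower and 0 called, with a median of -0.03. Tap1, the head-to-head neighbour of Psmb9, had an estimate of -0.26 ± 0.14 (edgeR adjusted p = 0.294), that of H2-D1 was -0.25 ± 0.19, and that of Nlrc5, which switches on these genes, -0.11 ± 0.17. Of 24 interferon-responsive genes 22 were lower and 2 higher, with a median of -0.48, and Gbp4 was called (-0.72 ± 0.15, edgeR adjusted p = 0.049). Without liver 3.2 it was not called. Irf8 (-0.51) and Ifit2 (-1.16) were lower in each sgPrdx2 liver but not called (edgeR adjusted p = 0.067 and 0.065). By liver, the interferon list stood at 0.23, -0.34 and 0.13 in sgCtrl and at -0.41, -0.43 and -0.47 in sgPrdx2 livers. Liver sgCtrl 7.1 was the lowest of its group both on this list and for the immunoproteasome genes. In liver 3.2 the lists parted, the immunoproteasome genes being the highest of all livers and the interferon list the lowest, by a small margin. The immunoproteasome transcripts have 962 to 1628 bases, and all tested interferon genes but Isg15 (756) and Cxcl10 (1094) have longer ones. The part of transcript length in this parting was not tested.

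Cell type markers differed between the groups in the same livers. All 20 leukocyte markers passed the filter on low counts, 18 were lower and 5 of them called, with a median of -0.33 (-0.53 without liver 3.2); Itgb2 (-1.06 ± 0.13), Cd53 (-0.88 ± 0.16) and Mpeg1 (-0.82 ± 0.14) had the smallest p. Their sum was 3713 to 4046 CPM over the control livers and 2478 to 3373 CPM over the sgPrdx2 livers, with 3.2 the highest of its group. Lyz2 alone gave 1976 to 2057 CPM of that sum over the control livers and 1335 to 2084.5 CPM over the sgPrdx2 livers. All 12 hepatocyte markers were higher and 6 of them called, with a median of 0.96, led by Ttr (1.35 ± 0.24), Cyp2e1 (0.96 ± 0.18) and Serpina1a (1.25 ± 0.23). Of the 6 endothelial markers 5 were lower and 1, Pecam1, called (-0.77 ± 0.15), with a median of -0.51 (-0.28 without 3.2). Of the stellate and fibroblast markers 5 of 6 were lower, and of the cholangiocyte markers 5 of 5, with 0 called in either list. With sgCtrl 5.1, sgCtrl 7.2, sgPrdx2 1.1 or sgPrdx2 1.3 left out, edgeR called 0 genes of the whole table, these markers included, while 3114 to 3993 genes had an unadjusted p under 0.05. In bulk tissue, fewer cells of a type and less RNA per cell cannot be told apart. The part of cell makeup in the levels of the immunoproteasome genes, which leukocytes also use, was not tested.

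**Figure D5:**
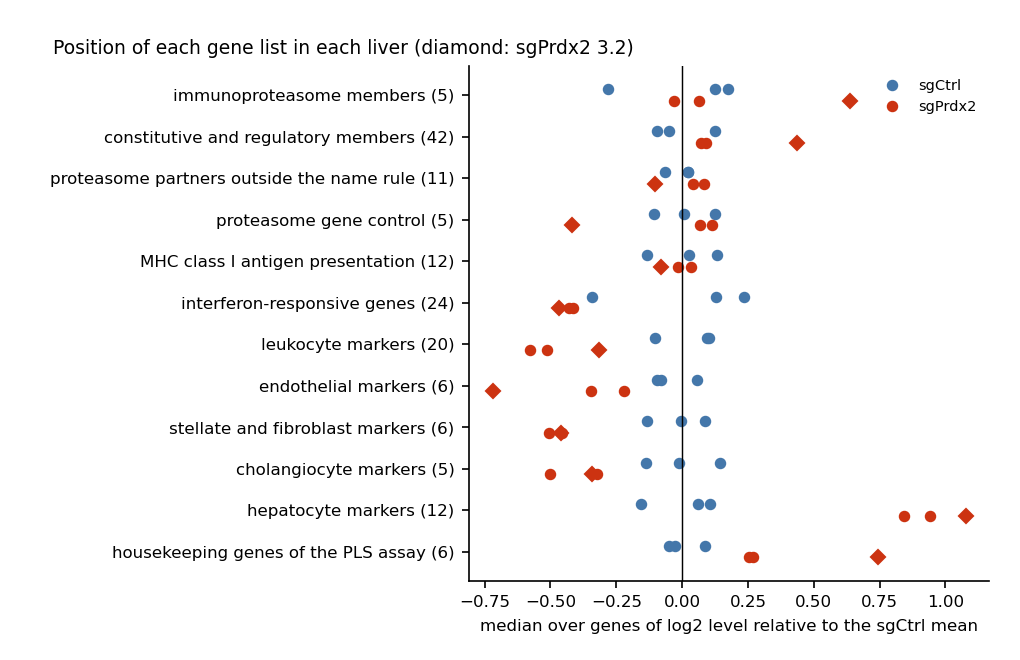
Position of each gene list in each liver, as the median over its genes (number in brackets) of the log2 level relative to the sgCtrl mean (x axis); blue is sgCtrl, red sgPrdx2 and the diamond sgPrdx2 3.2. The interferon and leukocyte lists lie below 0 in the 3 sgPrdx2 livers, while the immunoproteasome genes run from -0.03 to 0.64 there.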

How the data were processed

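RNA-Seq of 6 frozen livers (3 sgCtrl, 3 sgPrdx2) was analysed. The authors deposited counts of reads per gene as whole numbers without normalization, and the submitters' processing notes name HISAT2, HTSeq, DESeq2 and GRCm38; strandedness is not given in the sources used here. A second deposited table holds the authors' DESeq2 comparison (mean level, log2 fold change, standard error, statistic and p-values) and was not used. Counts were tested with edgeR 4.0.16 in R 4.3.3 (filterByExpr with minimum count 10, TMM, quasi-likelihood test, no covariate), with Benjamini-Hochberg adjustment over 17032 genes and a threshold of 0.05; the biological coefficient of variation was 0.213. The fit was tested on simulated data. CPM use TMM library sizes, and transcript lengths are those of GENCODE M21. The members, gene lists and tests were chosen with earlier results of these data known. Values in every liver were given for the immunoproteasome genes, Psmb5 to Psmb7, called members and, in each other role, the members with the largest and smallest log2 fold change; of other lists, up to 3 genes with the smallest p were named. Other genes named here, such as Psma6, Psmd6, the rest of the assembly chaperones, Psme4 and Psmd5, were chosen after their values were seen. Alternatives were RLE, upper-quartile and housekeeping scaling, DESeq2 1.42.0, other filters, a length and GC correction and leaving out each liver.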

Additional observations from a re-analysis of the deposited data

How the results depend on the processing

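The count of called members was 0 in 13 of the 15 settings and 1 (Psmf1) with DESeq2 and with the length and GC correction. Over all genes, DESeq2 called 2118 of the 15363 it gave an adjusted p, and the fit with the length and GC correction called 1152 of 17032. Leaving out each liver gave 0 called members each time. The median of the constitutive and regulatory members was -0.14 and that of the immunoproteasome genes -0.20 with housekeeping scaling, against medians of 0.24 and 0.19 in the main setting, and leaving out each liver gave 0.08 to 0.34 and 0.02 to 0.35. The difference in immunoproteasome share ran from -2.24 to 0.48 percentage points when each liver was left out, and was -1.76 without division by length. With housekeeping scaling 14 of the 22 named members turned negative: Psmb8 -0.32, Psmb9 -0.20, Psmb10 -0.0093, Psme1 -0.21, Psme2 -0.13, Psmb5 -0.29, Psmb6 -0.13, Psma8 -0.027, Psma1 -0.29, Psmb2 -0.039, Psmc4 -0.12, Psmd4 -0.062, Psmf1 -0.039 and Psmg4 -0.052. With the length and GC correction 6 did: Psmb8 -0.095, Psmb9 -0.0014, Psme1 -0.045, Psmb5 -0.17, Psmb6 -0.016 and Psma1 -0.033. Psmb8 was -0.059 without sgCtrl 7.1 and -0.19 without sgPrdx2 3.2, and Psme1 -0.070 without 3.2. The other named members kept their direction in every setting. The housekeeping reference has the limit given above. Leaving out 1 liver left 0 to 619 genes called over the whole table, so calls at this size depend on single livers; with 3 livers a group, an interval such as -0.47 to 0.63 for Psmb8 leaves changes of that size unresolved. No paired analysis was possible because the groups share no replicate number.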
